A study of Mus musculus with 10 samples.

Results

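The 5 genes described here encode the receptors for oestrogen (Esr1 and Esr2), progesterone (Pgr), glucocorticoids (Nr3c1) and mineralocorticoids (Nr3c2). They were chosen by gene symbol, with earlier results of these data known. They come from the 55416 genes of a count table of RNA that came down with Musashi proteins from mouse pituitary. All 5 are in the table, and 4 passed the low-count filter into the 20550 genes tested, while Esr2 did not. The mice were sighted FVB animals of 8 to 10 weeks, with no genetic change or drug named in the labels, and 6 pituitaries were pooled for each lysate. Each lysate was divided between pooled antibodies to Musashi1 and Musashi2 (here the Musashi IP) and control rabbit IgG, which gave 5 libraries of each kind. No library of the lysate before immunoprecipitation is among them. IgG levels are of RNA carried over with control IgG, read here as a stand-in for the lysate, which was not tested. Lysates 2, 5 and 6 were from females and lysates 3 and 7 from males. The protocol implies 1 more pair of male libraries, not analysed here. A lysate pools pituitaries, so a value stands for the cell types in them together. Fewer cells of a type cannot be told apart from less RNA per cell. Posterior lobe markers were low, at 1.62 to 7.16 CPM in sum over the IgG libraries. The cycle stage of the females is not given in the sources used here.

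Steroid receptors are transcription factors that wait in the cell with chaperones, bind their hormone, and then act on target genes in the nucleus. In the pituitary they carry feedback from the gonads and the adrenal cortex: Esr1 drives prolactin output and shapes gonadotropin output, Pgr responds to oestrogen in gonadotropes, and Nr3c1 restrains the adrenocorticotropic hormone made by corticotropes. The Musashi proteins bind RNA, act mainly on the 3′ untranslated regions (3′ UTRs) of mRNAs and raise or lower translation. An immunoprecipitation from such a lysate asks which mRNAs travel with them.

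The members differed in how many Musashi words their 3′ UTRs hold. The words searched were GTAGT or GTTAGT or GTTTAGT, and likewise ATAGT or ATTAGT or ATTTAGT (T stands for U), on the sense strand only, in the longest 3′ UTR that GENCODE release M21 annotates for each gene, and words may overlap each other. A match is a stretch of letters and not a measured binding site. Pgr stood at the upper end, with 18 words in 3473 nt, or 5.18 per kb, a higher density than that of 96.2% of the 13659 tested genes with a 3′ UTR of at least 100 nt. Esr1 had 11 words in 4191 nt (2.62 per kb) and Nr3c1 11 in 3937 nt (2.79 per kb), both above the median of 1.51 per kb. Nr3c2 had 3 words in 2482 nt (1.21 per kb), and Esr2 had 1 in 1311 nt (0.763 per kb), both below that median. The windows below are printed to show the densest stretch of Pgr beside the words of Esr1, Nr3c2 and Esr2. They are 30 bases long, 5′ to 3′, from the transcripts of GENCODE release M21 on GRCm38, with the Musashi words in capitals and positions counted from the first base of the 3′ UTR.
Pgr, bases 2807 to 2836: taaaggATTAGTttgATAGTAGTtatcttt
Pgr, bases 395 to 424: ggctatggctatGTAGTtcctttggtctcc
Esr1, bases 252 to 281: atgaggattcctATAGTcttcagtcttcat
Esr1, bases 699 to 728: accctggaatgaATTAGTctccttcatgag
Esr1, bases 758 to 787: tttcattttataATAGTcttctgcccctgg
Nr3c2, bases 562 to 591: gcatacacactcGTTAGTgtccatttatta
Nr3c2, bases 1085 to 1114: agactccagcgcGTAGTtctggcttctgct
Nr3c2, bases 2373 to 2402: taaaaacactaaATTAGTttaaaatgaagc
Esr2, bases 721 to 750: cttcaggccttcATAGTgtgtcttccattg
The first Pgr window holds 3 words, of which a pair overlap in the letters ATAGTAGT. The 3 Nr3c2 windows hold all of its words, and they lie far apart.

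A word alone says little, since 73.3% of the 13659 tested protein-coding genes with a 3′ UTR of at least 100 nt hold at least 1. Among the 2023 tested genes whose 3′ UTR is within 25% of the length of Pgr's, 98.4% hold a word, the median is 6 words, and 0.741% hold as many as Pgr. For Esr1, 26.9% of 1539 genes of like length hold as many words, and for Nr3c1 23.5% of 1695. For Nr3c2 75.2% of 2601 such genes hold as many, and 96.0% hold at least 1. For Esr2 84.2% of 2582 such genes hold at least 1 word. The density also depends on the isoform: the shortest annotated 3′ UTR of Pgr, of 287 nt, holds 0 words, another 3′ UTR of Nr3c2 reaches 1.77 per kb, above the median, and the values of Esr1 run from 1.66 to 5.87 per kb over its annotated 3′ UTRs. The gene counts do not show which 3′ UTR the pituitary uses. With the core TAG alone, Pgr no longer stood apart: Nr3c1, Pgr and Esr1 had 14.5, 14.4 and 14.3 per kb, and Nr3c2 and Esr2 had 7.66 and 7.63, against a median of 11.8. Of these 13659 genes, the 3627 called higher in the Musashi IP had a median of 1.70 words per kb in 3′ UTRs of 2076 nt (median). The other 10032 had 1.41 per kb in 995 nt, and the part of length was not tested. In both counts of words, in the longest 3′ UTR, Esr1, Pgr and Nr3c1 lay above the median, and Nr3c2 and Esr2 below it.

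**Figure D1:**
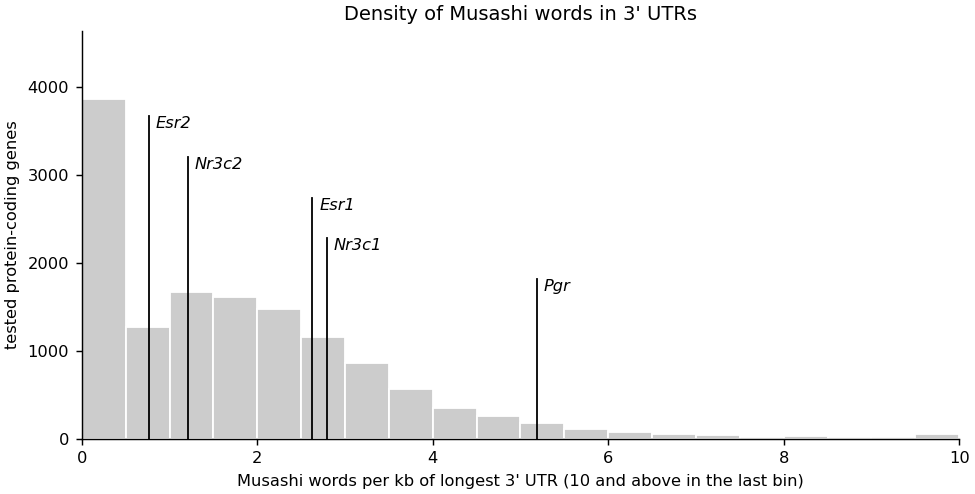
Number of tested protein-coding genes (vertical axis) by Musashi words per kb of the longest annotated 3′ UTR (horizontal axis), with lines at the 5 receptor genes. Pgr lies at 5.18 per kb in the sparse upper tail, Nr3c1 and Esr1 at 2.79 and 2.62, and Nr3c2 and Esr2 at 1.21 and 0.763, below the median of 1.51.

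In the immunoprecipitation, 3 of the 4 receptor mRNAs tested rose over IgG (Esr1, Pgr and Nr3c1), and Nr3c2 did not pass the test. Of all 20550 genes tested, 18.5% were higher in the Musashi IP at an adjusted p under 0.05, and 8.40% were lower, 26.9% in all, so a call by itself is common here. Esr1 moved furthest, at 2.08-fold, followed by Pgr at 1.62-fold and Nr3c1 at 1.46-fold. Levels below are CPM, counts scaled to library size with TMM factors. Fold changes and adjusted p-values are from edgeR's quasi-likelihood test with the lysate as a block and Benjamini-Hochberg adjustment over all genes tested.

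Esr1 (ENSMUSG00000019768, chromosome 10) is the main oestrogen receptor of the gland. Its IgG libraries held 306, 246, 343, 342 and 283 CPM in lysates 2, 3, 5, 6 and 7, and its Musashi IP libraries 475, 368, 777, 1294 and 553 CPM in the same order. Every Musashi IP library lay above every IgG library, a pattern that 9.70% of the tested genes share. The IgG values were close together (304 ± 40.9 CPM, SD, n = 5), whereas the Musashi IP values spread widely (693 ± 368 CPM), with lysate 6 highest. The fitted log2 fold change was 1.05 ± 0.18 (SE), with an adjusted p of 0.00586 (edgeR), and it was higher in 5 of 5 lysates, as were 22.4% of the tested genes. It ranked 1312 of 20550 by fold change, and 93.6% of the tested genes had a smaller one. Leaving out each lysate in turn gave values from 0.84 to 1.21, all with an adjusted p under 0.05. After a correction for transcript length and GC content Esr1 was at 0.80, with an adjusted p of 0.00371 (edgeR).

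Pgr (ENSMUSG00000031870, chromosome 9) is itself a classical oestrogen-induced gene. In the females, lysates 2, 5 and 6, it had 144, 133 and 89.2 CPM with IgG and 175, 197 and 218 CPM in the Musashi IP. In the males, lysates 3 and 7, it had 14.7 and 18.6 CPM with IgG and 22.8 and 31.0 CPM in the Musashi IP. The IgG and Musashi IP groups overlapped, because every male library lay below every female one, but within each of the 5 lysates the Musashi IP was the higher. The log2 fold change was 0.70 ± 0.14, with an adjusted p of 0.0104 (edgeR), and 87.4% of the tested genes had a smaller one. With no block for the lysate the fold change was nearly the same, 0.68, but the adjusted p was 0.560, and with sex as a term in place of the block, a fit chosen after seeing the data, it was 0.0082. Leaving out each lysate in turn gave 0.53 to 0.86, all with an adjusted p under 0.05. After the correction for transcript length and GC content Pgr was at 0.44, still with an adjusted p under 0.05 (0.0149, edgeR).

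Nr3c1 (ENSMUSG00000024431, chromosome 18), the glucocorticoid receptor, had 104, 107, 91.3, 88.0 and 162 CPM in the IgG libraries of lysates 2, 3, 5, 6 and 7. The Musashi IP libraries held 93.5, 160, 132, 210 and 235 CPM. Lysate 2 was the only one in which the Musashi IP was lower than IgG, and the groups overlapped. The log2 fold change was 0.55 ± 0.17, with an adjusted p of 0.0437 (edgeR), and 83.5% of the tested genes had a smaller one. This call was close to the threshold: dropping lysate 3, 5 or 7 ended it (adjusted p = 0.107, 0.123 and 0.114, with log2 fold changes of 0.45, 0.56 and 0.48), as did refitting with DESeq2's size factors (0.0549) and a correction for transcript length and GC content (0.0508, at a log2 fold change of 0.34). The direction did not change in any of these.

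Nr3c2 (ENSMUSG00000031618, chromosome 8), the mineralocorticoid receptor, also binds glucocorticoids. Its IgG libraries held 72.4, 136, 108, 113 and 169 CPM in lysates 2, 3, 5, 6 and 7, and the Musashi IP libraries 69.9, 139, 116, 130 and 181 CPM. Each pair was close, and the order of the lysates from lowest to highest (2, 5, 6, 3, 7) was the same in both. The log2 fold change of 0.08 ± 0.09 did not pass (adjusted p = 0.520, edgeR), and its sign was not fixed: it was -0.10 when library totals replaced the TMM factors and -0.02 when only protein-coding genes were fitted. Exons of Nr3c2 overlap Gm10649 on the other strand, which had 74 counts over all 10 libraries, against 585 to 2099 counts of Nr3c2 in each. The strand setting of the counting is not given in the sources used here.

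Esr2 (ENSMUSG00000021055, chromosome 12), the other oestrogen receptor, was near the limit of detection. It had 3, 5, 0, 4 and 3 counts in the IgG libraries of lysates 2, 3, 5, 6 and 7, and 3, 5, 4, 1 and 4 counts in the Musashi IP libraries. The highest level was 0.674 CPM. The 0 in the IgG library of lysate 5 allows up to 0.389 CPM (3 counts), an allowance for counting error only. No fold is given for Esr2, because both groups sit at or near that limit.

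**Figure D2:**
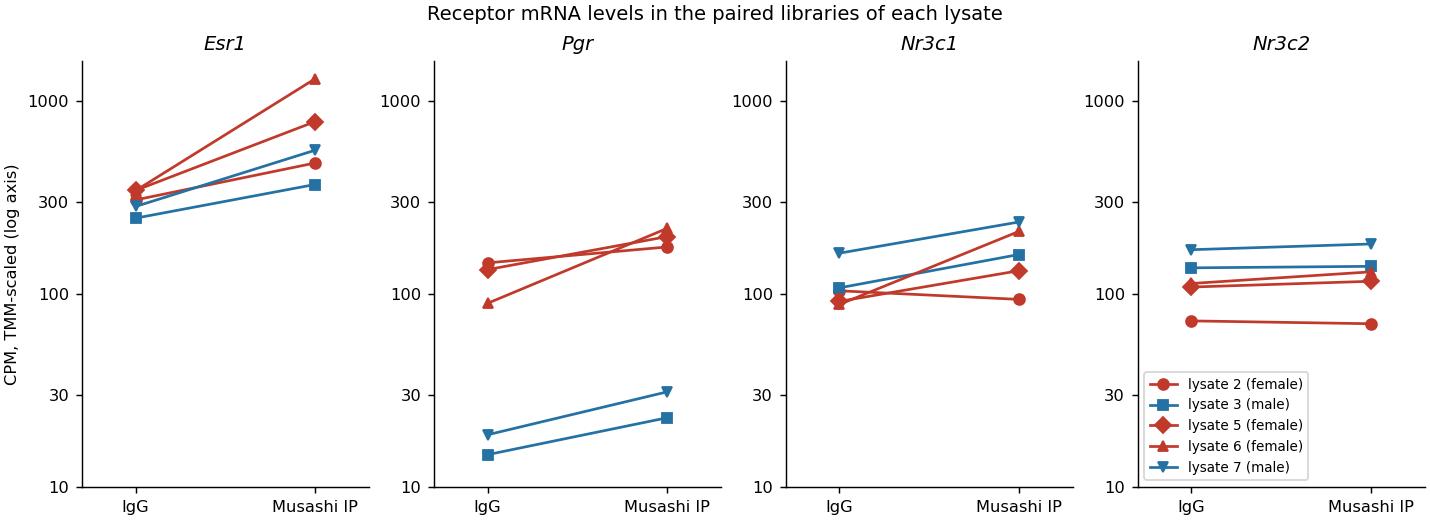
Level of each of the 4 tested receptor mRNAs in CPM (TMM-scaled, log axis) in the IgG and Musashi IP library of each lysate, joined by a line, females in red and males in blue. Esr1 rises in every lysate, from 246 to 343 CPM up to 368 to 1294 CPM, the Pgr lines form separate female and male bands, and the Nr3c2 lines are nearly flat.

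The size of the rise differed between lysates for the genes called higher as well as for the receptors, so each receptor was set against the genes of its own lysate. The log2 ratios of Esr1 were 0.63, 0.58, 1.18, 1.92 and 0.97 in lysates 2, 3, 5, 6 and 7. The median ratios of the 3804 genes called higher were 0.45, 0.51, 0.87, 1.57 and 0.81, so Esr1 lay above that median in every lysate. Esr1 is itself in this set, which was called from the same libraries, so this is a description and not a test. Its place among all tested genes was steadier than its ratio: between 88.1% and 93.9% of the genes had a lower ratio in each lysate. Pgr, at 0.27, 0.63, 0.57, 1.28 and 0.73, stood above 75.1% to 89.4% of the genes. Nr3c1 had log2 ratios of -0.15, 0.57, 0.53, 1.25 and 0.53. It stood above 35.2% of the genes in lysate 2 and above 80.5% to 87.9% in the others. Nr3c2 had ratios between -0.05 and 0.20, near the middle of its lysate each time, above 44.6% to 59.8% of the genes. Lysate 6 gave the highest ratio for all 4 receptors. It also had the widest spread of ratios over all tested genes (SD 1.03, against 0.480 to 0.632 in the other lysates) and the Musashi IP library with the most counts, 13.0 M. Its IgG and Musashi IP libraries correlated least in their deviations from the group means (0.186, against 0.523 to 0.778 in the other lysates). The part of these traits in the receptors' ratios was not tested.

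**Figure D3:**
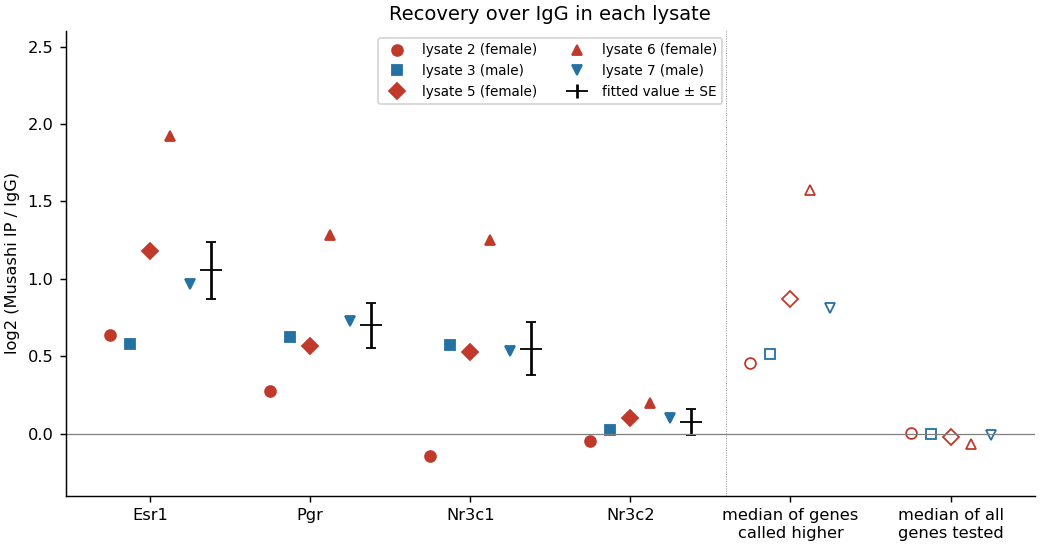
Log2 ratio of Musashi IP to IgG in each lysate (points, females red, males blue) for the 4 tested receptors, with the fitted value and its SE, and, to the right, the medians of the genes called higher and of all tested genes. Esr1 lies between 0.58 and 1.92 and Nr3c2 between -0.05 and 0.20, and lysate 6 is highest for each receptor and for the genes called higher.

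Some markers of hormone-producing and other cell types also passed in the same comparison. Of all tested genes 18.5% were higher and 8.40% lower, with a median log2 fold change of -0.07. In the Musashi IP 3 of 5 tested gonadotrope markers were higher (median 1.37), as were 2 of 3 for lactotropes (0.82), 1 of 3 for somatotropes (-0.08), 3 of 6 for corticotropes and melanotropes (0.32), 2 of 3 for thyrotropes (0.51) and 2 of 4 for stem or progenitor cells (0.89), with 0 lower in each. Of the erythroid markers 3 of 4 were lower (-0.65) and of the immune markers 2 of 5 (-0.38), with 0 higher, and of the endothelial, mural or fibroblast and neuron markers none passed, and none of the posterior lobe markers was tested. The gonadotrope markers summed to 187 to 551 CPM over the IgG libraries and 347 to 1343 over the Musashi IP libraries. These sums hold nothing from the gonadotrope gene Lhb, which had 0 counts in every library for an unknown reason. The erythroid markers summed to 461 to 1248 CPM with IgG and 271 to 688 CPM in the Musashi IP. The part of these shifts in the receptors' rise was not tested.

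The receptors were also compared with each other within lysates, where the scaling of the libraries cancels. Over Nr3c2, Esr1 recovery was 0.98 ± 0.46 higher on the log2 scale (SD, n = 5), or 1.98-fold, and higher in 5 of 5 lysates, with differences from 0.55 to 1.72. Pgr exceeded Nr3c2 by 0.62 ± 0.29 and Nr3c1 by 0.15 ± 0.17, and Esr1 exceeded Nr3c1 by 0.51 ± 0.31, each in 5 of 5 lysates. For each of these 4 pairs an exact two-sided sign-flip permutation test over the lysates gave p = 0.0625, the smallest that 5 lysates allow, and 0.0938 after adjustment over the 6 pairs, so this design could not reach 0.05. Esr1 against Pgr (0.36 ± 0.29) and Nr3c1 against Nr3c2 (0.47 ± 0.41) had the first gene higher in 4 of 5 lysates, with p = 0.125 by the exact permutation test before and after adjustment.

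Per length of annotated exons, the IgG libraries ranked the receptors Esr1, Nr3c2, Nr3c1, Pgr and Esr2. This is the order in RNA carried over with IgG, and levels in the gland itself were not measured. The levels were 22.2 ± 3.0 CPM per kb for Esr1, 18.5 ± 5.53 for Nr3c2, 14.4 ± 3.91 for Nr3c1, 9.37 ± 7.19 for Pgr and 0.111 ± 0.0727 for Esr2 (SD, n = 5). The libraries ran from 18.0 to 25.1 for Esr1, 11.2 to 26.1 for Nr3c2, 11.5 to 21.1 for Nr3c1 and 1.72 to 16.9 for Pgr, so each neighbour in this order overlapped the next, while Esr2 was below all of them in every library. Per length of the longest transcript Esr1 stood further ahead, at 47.9 ± 6.46 CPM per kb against 20.2 ± 6.05 for Nr3c2, because its exons add up to 13661 nt but its longest transcript has 6339 nt. The order differed by sex and by the length used. Per kb of exon it was Esr1, Nr3c2, Pgr and Nr3c1 in females (24.2, 15.1, 14.3 and 12.3 CPM per kb) and Nr3c2, Esr1, Nr3c1 and Pgr in males (23.6, 19.4, 17.5 and 1.95). Per kb of the longest transcript Esr1 led in both sexes: the order was Esr1, Pgr, Nr3c2 and Nr3c1 in females (52.1, 17.8, 16.5 and 14.7 CPM per kb) and Esr1, Nr3c2, Nr3c1 and Pgr in males (41.7, 25.8, 20.9 and 2.42).

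Between the sexes, Pgr was the only member to pass the test, and it passed in both kinds of library. With IgG it was 7.30-fold higher in females, at 122 ± 29.2 CPM (SD, n = 3) against 16.7 ± 2.78 CPM (n = 2), a log2 difference of 2.87 ± 0.25 with an adjusted p of 5.87e-05 (edgeR). In the Musashi IP libraries it was 7.19-fold higher, at 197 ± 21.6 against 26.9 ± 5.82 CPM, a log2 difference of 2.85 ± 0.26 with an adjusted p of 0.000568 (edgeR). Of 20987 genes tested with IgG, 4.50% differed by sex (2.66% higher in females and 1.84% lower), and of 21238 tested in the Musashi IP 2.84% did (1.90% higher and 0.946% lower). Pgr ranked 162 from the top by log2 difference with IgG. Its log2 difference stayed between 2.71 and 3.05 with IgG and between 2.66 and 3.08 in the Musashi IP when single lysates were left out, with an adjusted p under 0.05 each time. Leaving out lysate 3 or 7 leaves 1 male library, which is then assumed to vary as the females do.

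The other receptors had smaller values that did not pass, and whether they differ from Pgr in this was not tested. Esr1 was higher in females with IgG, at 306, 343 and 342 CPM against 246 and 283 CPM in males, a log2 difference of 0.31 ± 0.16 that did not pass (adjusted p = 0.381, edgeR). In the Musashi IP libraries its log2 difference was 0.85 ± 0.38 (adjusted p = 0.301, edgeR), and the sexes overlapped. Nr3c1 and Nr3c2 pointed the other way. Nr3c1 had a log2 difference of -0.52 ± 0.19 with IgG (adjusted p = 0.188, edgeR) and -0.48 ± 0.32 in the Musashi IP (adjusted p = 0.501). Nr3c2 was at -0.65 ± 0.21 with IgG (adjusted p = 0.125, edgeR) and -0.63 ± 0.27 in the Musashi IP (adjusted p = 0.285), and with no low-count filter its IgG difference passed, at -0.64 with an adjusted p of 0.0161. With IgG the female and male values of all 4 receptors did not overlap, Esr1 and Pgr with females above and Nr3c1 and Nr3c2 with females below. With 3 against 2 libraries this is common: 16.7% of the tested genes had females above and 16.9% females below. In the Musashi IP libraries the sexes did not overlap for Pgr and Nr3c2, as for 16.7% (females above) and 18.0% (females below) of the tested genes. That each lysate is its own set of mice is taken from the separate occasions of the immunoprecipitations.

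**Figure D4:**
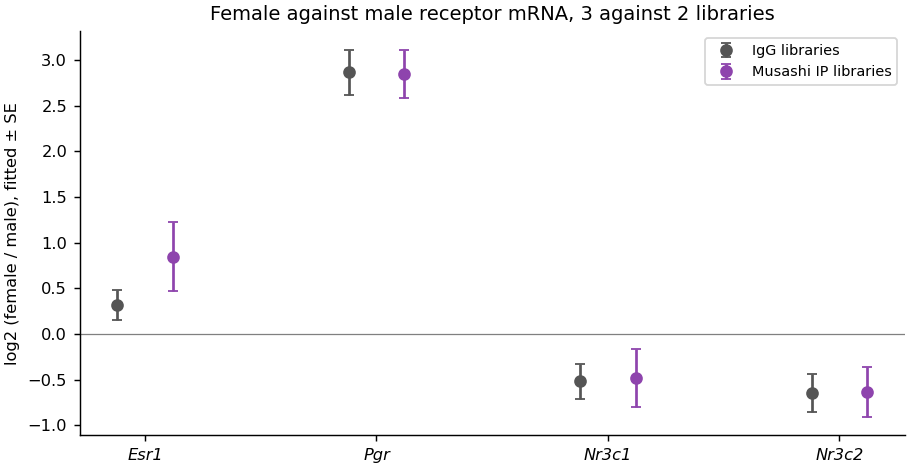
Fitted log2 difference of females over males (vertical axis, with SE bars) for the 4 tested receptors in IgG libraries (grey) and Musashi IP libraries (purple), 3 female against 2 male libraries each. Pgr lies at 2.87 and 2.85, Esr1 above 0, and Nr3c1 and Nr3c2 below 0.

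Some markers of pituitary cell types differed by sex, as Pgr did. Of all genes tested with IgG, 2.66% were higher in females and 1.84% lower. The summed level of the lactotrope markers (Prl, Drd2 and Angpt1) ran from 12181 to 39254 CPM in female IgG libraries and from 1658 to 3209 in male ones, with Prl higher and the other 2 not passing. The gonadotrope markers ran from 187 to 287 CPM in females and from 477 to 551 in males, with 1 of 5 tested, Fshb, lower in females, and Lhb at 0 counts in every library. Lhb is a defining gonadotrope gene, the reason for its 0 is not known, and the sums hold nothing from it. Somatotrope markers summed to 3549 to 11224 CPM in females and 10624 to 17138 in males, with 2 of 3 lower in females. The mural or fibroblast markers ran from 583 to 1249 CPM in females and from 273 to 381 in males, with 1 of 5, Col1a2, higher in females. Corticotrope and melanotrope markers summed to 371 to 912 CPM in females and 936 to 1499 in males, with Crhr1 and Pcsk2 lower in females. Thyrotrope markers summed to 58.9 to 70.0 CPM and 83.4 to 91.6 CPM, with Tshb lower. The part of these shifts in the sex difference of any receptor was not tested. The anterior lobe hormone genes Prl, Gh and Pomc had counts in every library, and the posterior lobe markers summed to 1.62 to 7.16 CPM over the IgG libraries.

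Whether recovery over IgG itself differed between the sexes was tested as female minus male of the antibody effect. The differences were 0.47 ± 0.36 for Esr1, 0.02 ± 0.33 for Pgr, -0.01 ± 0.38 for Nr3c1 and 0.02 ± 0.20 for Nr3c2 on the log2 scale, each with an adjusted p of 1 (edgeR, 3 residual degrees of freedom). No gene passed this test: 0 of 20550 (0.00%) in edgeR, DESeq2 and limma-voom, with 187, 50 and 193 at an unadjusted p under 0.05. With SEs of 0.20 to 0.38, a sex difference in recovery of that size could not be told from 0. In the 2 male lysates alone Esr1, Pgr and Nr3c1 rose by 0.78, 0.69 and 0.56, and in the 3 female lysates alone the values were 1.25, 0.71 and 0.55, where 0 genes passed in edgeR and 5328 had an unadjusted p under 0.05.

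The genes with the most similar pattern to each receptor were found by the root mean square (RMS) difference of centred log2 CPM over the 10 libraries, among 13457 genes with a symbol and at least 2 CPM. For Esr1 these were Slc30a7, Pitpnb and Foxk2, at 0.0805, 0.109 and 0.114, against a median of 0.715 over all genes. For Pgr they were Cldn8, Chml and Plxna4, at 0.232, 0.269 and 0.283, against a median of 1.44. These 3 genes differed between the sexes with IgG by 2.66, 2.87 and 2.87 on the log2 scale, a likeness that their choice over the same libraries brings with it. Nr3c1 was nearest to Col4a3bp, Kbtbd8 and Bag2 (0.135 to 0.139), and Nr3c2 to Gsdme, Esrrg and Zfp185 (0.108 to 0.117). Among the receptors, Nr3c1 and Nr3c2 were the most alike pair (0.355). The receptor nearest to Pgr was Esr1 (1.19), ahead of Nr3c1 (1.66) and Nr3c2 (1.77).

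Other genes of steroid signalling were read from 6 lists. The median log2 fold change over all tested genes was -0.07, the share of genes called higher 18.5% and the share called lower 8.40%. Fewer genes of the whole table passed without lysate 5 or lysate 7. Those higher were then 1676 and 2288 in place of 3804, and those lower 187 and 597 in place of 1727. Of the related nuclear and membrane steroid receptors, 10 of 12 were tested, 6 rose in the Musashi IP and 1 fell, with a median of 1.03. Those with the largest rise were the progesterone receptor membrane components, Pgrmc1 and Pgrmc2, and the membrane progestin receptors Paqr7 and Paqr8. Pgrmc1 rose by 2.27 ± 0.31, Pgrmc2 by 2.22 ± 0.30, Paqr7 by 1.63 ± 0.27 and Paqr8 by 1.25 ± 0.21 (log2 ± SE). Paqr5, the gene that fell, belongs to the same Paqr family of membrane progestin receptors, was at -0.48 ± 0.15 and was named after its value was seen. The count of rises was 6 without each lysate in turn, and the fall of Paqr5 was lost without lysate 2, 5, 6 or 7.

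Chaperones that hold the receptors ready for hormone, among them the Hsp90 machinery, had 7 of 16 genes higher and 0 lower, with a median of 0.31. Fkbp5, which lowers the hormone affinity of Nr3c1 and is induced by it, rose by 1.16 ± 0.20, Dnajb1 by 0.90 ± 0.20, the Hsp90 co-chaperone Ptges3 by 0.86 ± 0.20 and Hspa4 by 0.63 ± 0.13. Hsp90ab1, at 0.28, and Hsp90aa1, at -0.0039, did not pass. Without lysate 5 only 1 chaperone passed as higher, without lysate 7 there were 4, and without lysate 6 there was 1 lower. Coregulators, which link the receptors to chromatin and the transcription machinery, had 4 of 23 higher and 2 lower, with a median of -0.04, near that of all genes. Tbl1xr1 rose by 0.63 ± 0.15, the coactivator Ncoa2 by 0.59 ± 0.13 and the Mediator subunit Med1 by 0.41 ± 0.12, and the helicase Ddx5 fell by 0.34 ± 0.09. The count of coregulators higher was 2 without lysate 3, 0 without lysate 5 and 1 without lysate 7, and none was lower without lysate 2, 5 or 7. The balance turned with library totals (2 higher, 4 lower) and after the length and GC correction (2 higher, 8 lower). Med1 then no longer passed, at 0.24 with library totals (adjusted p = 0.0804) and 0.17 after the correction (adjusted p = 0.183), and it was also lost without lysate 3, 5 or 7 (adjusted p from 0.0566 to 0.143) and with no block (0.0663). In the corrected fit Ncoa2 passed at 0.34 and the chaperone gene Hspa4 at 0.40.

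Enzymes of steroid metabolism had 4 of 12 tested genes higher and 0 lower, with a median of 0.08. These were Akr1c14 at 1.28 ± 0.27, H6pd, which supplies the cofactor for glucocorticoid regeneration, at 1.11 ± 0.18, Hsd17b7 at 1.10 ± 0.23 and Hsd17b12 at 0.85 ± 0.20, and without lysate 5 the count was 2. Of 18 glucocorticoid and mineralocorticoid target genes, 6 were higher and 0 lower, with a median of 0.33. Tsc22d3 rose by 1.88 ± 0.35, Pdk4 by 1.26 ± 0.19 and the cell cycle inhibitor Cdkn1a by 1.15 ± 0.26, while Sgk1, at 0.0023, and Per1, at -0.18, did not pass. The count was 3 without lysate 5 or lysate 7. Of 11 tested oestrogen target genes, 4 were higher and 0 lower, with a median of 0.35: the cyclin gene Ccnd1 at 1.78 ± 0.28, the lysosomal protease gene Ctsd at 1.72 ± 0.26, Stc2 at 1.18 ± 0.21 and the retinoic acid receptor gene Rara at 0.35 ± 0.11. Rara no longer passed when lysate 3, 5, 6 or 7 was dropped (adjusted p from 0.0569 to 0.229), with library totals (0.265), DESeq2's size factors (0.0544), DESeq2 (0.113), other filters or protein-coding genes alone (0.0942 to 0.0979), with no block (0.275), or after the length and GC correction (0.381, at 0.13). Greb1, at -0.11, and Prl, at 0.04, did not pass, although both are strongly expressed.

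**Figure D5:**
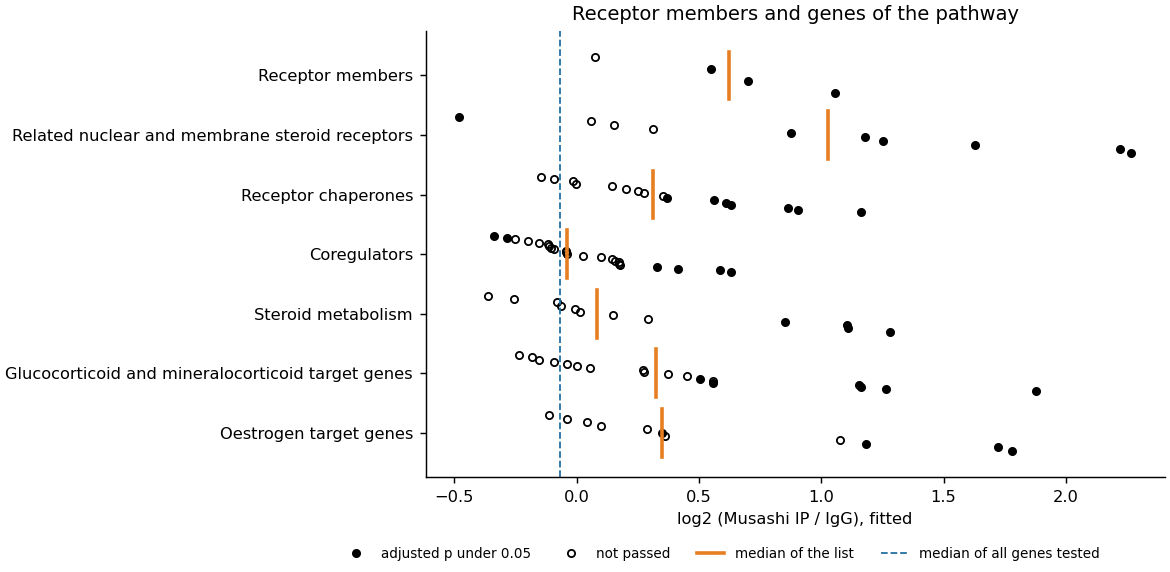
Fitted log2 fold change of Musashi IP over IgG (horizontal axis) of each tested gene in 7 groups (the receptor members and 6 lists), filled where the adjusted p was under 0.05, with the median of each group and of all tested genes (dashed, -0.07). The related receptors have the highest median, 1.03, and the coregulators, at -0.04, lie close to all genes.

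Several oestrogen targets were, like Pgr, higher in females. In the IgG libraries 6 of 13 tested oestrogen targets were higher in females and 0 lower, with a median of 0.48 against 0.0037 for all genes. In the Musashi IP libraries 4 of 13 were higher. Of all tested genes, 2.66% were higher in females and 1.84% lower with IgG, and 1.90% were higher in the Musashi IP. Greb1, an oestrogen-induced coactivator gene, was higher by 2.42 ± 0.22 (643 against 120 CPM), Myc by 2.41 ± 0.34 and Prl by 3.27 ± 0.52. In the other lists with IgG, 1 of 10 tested related receptors was higher in females and 1 lower. Of 16 chaperones 1 was lower, of 23 coregulators 1 was higher, and of 12 tested metabolism genes 1 was higher. Lists can share genes, such as Fkbp5. The metabolism gene Akr1c14 was higher in females by 4.29 ± 0.38, at 104 against 5.28 CPM. Of the 18 glucocorticoid and mineralocorticoid targets 1 was higher in females with IgG and 1 lower, with a median of 0.04. The lower one was Fkbp5, with a log2 difference of -1.81 ± 0.18, at 36.6 against 128 CPM, and the higher one Nfkbia, at 1.28 ± 0.28. These genes were named after their values were seen. Esr1, the receptor that acts on the oestrogen targets, did not itself pass between the sexes, at 0.31 with IgG and 0.85 in the Musashi IP. Its part in the sex difference of these targets was not tested.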

How the data were processed

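The authors deposited raw read counts per Ensembl gene, whole numbers with no normalization, for 10 libraries. The kit, per the labels, was TruSeq Stranded Total RNA Gold. The genome build GRCm39 and the tools STAR 2.7.1a, Trimmomatic 0.39 and FastQC 0.11.8 appear in the submitters' processing notes. The sources used here do not name the counting program, its strand setting or its rule for reads with several matches. Symbols came from GENCODE release M21 on GRCm38, which matched 52135 gene IDs (94.1%), and IDs with no match held 0.726% to 4.03% of a library's counts. Because the builds differ, no coordinates are given.

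Libraries held 6.67 to 13.0 M counts, and 1 count equals 0.0862 to 0.135 CPM after scaling. Tests ran in R 4.3.3 with edgeR 4.0.16 (filterByExpr, TMM factors, glmQLFit and glmQLFTest), adjusted by Benjamini-Hochberg at 0.05 over all genes tested. The fitting code was also run on simulated data, in which the changes were larger than those of the receptors over IgG. That run does not show how well changes of the receptors' size are found. SEs were computed as |log2 fold change| over the square root of F, and single-lysate ratios used a prior count of 2. Musashi IP was compared with IgG with a block for lysate (4 residual degrees of freedom), because both antibodies received the same lysate per the labels' protocols. Deviations from the group means correlated within a lysate at 0.523, 0.679, 0.602, 0.186 and 0.778 (lysates 2, 3, 5, 6 and 7); lysate 6 correlated more, at 0.415, with the Musashi IP of another lysate. The sexes were compared within each kind of library without pairing (3 residual degrees of freedom). These comparisons share libraries with the antibody comparison. Alternatives used DESeq2 1.42.0, limma 3.58.1, other scalings, filters and sets of lysates.

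The members and the lists were chosen with earlier results of these data known. Named from each list were up to 4 genes past adjusted p 0.05 in the antibody comparison with the largest fold change, at least 2 CPM and the same sign in all 5 lysates; others were named after their values were seen.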

Additional observations from a re-analysis of the deposited data

Results flagged for a closer look

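Within groups of 5 libraries or lysates, the receptors and the named genes of the lists were examined for a single value far from the others (a gap above 0.71 of the whole range). Of 83 groups, 7 had one. For independent, normally distributed values chance gives about 1 in 20. These groups mix the sexes and share libraries, so the 7 cannot be set against that rate. Among the receptors this was Nr3c1, at 162 CPM in the IgG library of lysate 7 (male), against 88.0 to 107 CPM in the other IgG libraries. Its Musashi IP library was also the highest, at 235 CPM. Among the other genes, Pgrmc1 had single high values of 90.7 CPM with IgG and 447 CPM in the Musashi IP, and Pgrmc2 one of 47.4 CPM with IgG. Ccnd1 stood at 350 CPM and Tsc22d3 at 150 CPM in 1 Musashi IP library each, and Tbl1xr1 had a log2 ratio of 1.35 in 1 lysate.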

How the results depend on the processing

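Esr1 kept its direction and its call in every alternative but the 3 female lysates alone, where it was 1.25. In that fit no gene passed (0 in all, 0 of the receptors), with Pgr at 0.71 and Nr3c1 at 0.55. The 2 male lysates alone gave 3508 genes, in a fit with fewer lysates and so fewer residual degrees of freedom. These counts do not compare the sexes, and 0 of 20550 genes passed the test of a sex difference in recovery. Without the replicate block 2583 genes passed in place of 5531 and 1 receptor in place of 3, with Pgr at 0.68 and Nr3c1 at 0.59; with sex as a term in its place, a fit chosen after seeing the data, Nr3c1 was again 0.59 and missed (adjusted p = 0.0589). Nr3c1 also missed at 0.53 with DESeq2's size factors and at 0.34 after the length and GC correction, in which Pgr passed at 0.44. Leaving out single lysates gave 1863 (lysate 5) to 5819 genes, and 0.38 to 0.77 for Nr3c1. Nr3c2 changed sign with library totals (-0.10), a 2 CPM filter (-0.0208), protein-coding genes alone (-0.0238) and the correction for length and GC (-0.20), and also when lysate 3 or 7 was dropped (-0.0025 to 0.15 over single lysates). Library totals moved the median of all genes from -0.07 to -0.24 and the share of higher among called genes from 68.8% to 43.7% (51.9% after the length and GC correction). Relative to that shift Esr1 (0.88), Pgr (0.52) and Nr3c1 (0.37) stayed above it.

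The female minus male difference in recovery kept its sign for Esr1 in every fit run (0.13 to 0.80 without single lysates). For the other receptors it lay near 0 and changed sign: Pgr to -0.0836 (library totals), -0.0309 (no filter), -0.0146 (2 CPM) and -0.00609 (protein-coding), Nr3c2 to -0.0853, -0.0295, -0.0147 and -0.00702 in the same fits, and Nr3c1 to 0.0104 (DESeq2's size factors), 0.00984 (DESeq2) and 0.0131 (limma-voom). Leaving out single lysates gave -0.27 to 0.26 for Pgr, -0.36 to 0.36 for Nr3c1 and -0.037 to 0.11 for Nr3c2. Between the sexes, 945 genes passed with IgG (1947 with no filter, 172 to 1354 without single lysates) and 604 in the Musashi IP (1059 by DESeq2, 1679 with no filter, 219 to 999). Nr3c2 passed with IgG only with no filter (-0.64). The cause of these changes was not tested. Sexes cannot be paired. With 1 count at 0.0862 to 0.135 CPM, Esr2 was too low to test.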
